A study of Populus trichocarpa
Populus deltoides with 74 samples.

Results

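PTAP1-1B and PTAP1-2A are poplar oligos named after APETALA1, and they are the only genes taken up here, 2 of the 217 oligos in the deposited value table. They were chosen by these row names, and their values were followed over all 19 groups of the series. RNA from wild-type poplars was labelled with Cy5 and hybridised to oligo arrays printed in the wells of 96-well plates, giving 74 arrays from 37 RNA isolations with 2 wells each. The labels name Populus trichocarpa and Populus deltoides together as the organism of every sample.

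The 19 groups fall into buds and shoot tips. At age 6 there were male floral buds, floral buds of trees whose sex is not stated, male lateral vegetative buds, and lateral vegetative buds of unstated sex. Lateral vegetative buds of unstated sex were also collected at ages 1, 2 and 5 years. All shoot tips are labelled female. Upper tips, meaning tips not labelled basal, were taken in June and again in May at ages 1, 2, 5 and 6, and basal shoot tips were taken in both months at ages 5 and 6. Each group had 2 isolations, called a and b in the labels, except the June upper tips of age 5, which had 1. Such pairs were described by the depositors as biological replicates, but whether a and b were different trees is not stated. The p-values therefore measure only spread between isolations, and how far this covers spread between trees is unknown. No group was treated, no bud group has a collection month in the labels, and every comparison of buds with tips also compares trees labelled male or unstated with trees labelled female.

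APETALA1 is known from Arabidopsis as a MADS-box transcription factor that marks young meristems as floral and later acts in the outer floral organs. It works beside LEAFY, whose poplar homolog is PTLF, and upstream of the organ identity genes, among them AGAMOUS for stamens and carpels (PTAG1 and PTAG2 in poplar) and DEFICIENS, named in snapdragon, for petals and stamens (PTD). Poplars are dioecious, pass through a juvenile phase of several years, and bear their flowers in catkins that develop within lateral floral buds. The sequences and genome positions of the oligos were not analysed here, so the gene that each name stands for was taken from the name.

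Values below are log2 intensities, with 1 unit standing for a doubling, after quantile normalization of the arrays and averaging of the 2 wells of an isolation. Group values are means ± SD over isolations, and differences are given ± SE from a limma model fitted to all 217 oligos, with p-values adjusted over all of them and a threshold of 0.05. Probes differ in brightness for reasons other than abundance, so a level of one oligo is not read as more or less RNA than a level of the other, and only changes between groups are compared. Deposited array medians lay between 8.05 and 8.79, and wells of one isolation correlated at a median of 0.968. The spread between wells was larger at low intensity, with an SD of 0.64 below a level of 6 and of 0.39 at 6 and above. Without background values, low intensities cannot be told from background here.

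PTAP1-2A was among the brightest oligos in floral buds, intermediate in most vegetative buds of age 6, and near the bottom of the arrays in young vegetative buds and shoot tips. Its level was 14.26 and 14.26 in the 2 isolations of male floral buds and 14.26 and 13.33 in floral buds of unstated sex. In vegetative buds of age 6 it was 9.29 and 5.83 in male trees, and 9.12 and 9.50 in trees of unstated sex. The floral and vegetative isolations did not overlap, and 1 male vegetative isolation, b, lay well below the other 3 vegetative ones. PTAP1-2A ranked first of all oligos on 6 of the 8 floral wells and among the first 3 on 7 of them. Quantile normalization gives the brightest oligo of an array nearly the same value, so 14.26 is the ceiling of this scale and differences measured from it are bounded. On the deposited scale the same floral isolations read 13.72 and 13.70 in male trees and 14.00 and 12.96 in trees of unstated sex.

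PTAP1-1B followed the same order of organs at age 6 with a smaller separation. It read 11.66 and 11.45 in male floral buds and 11.43 and 11.88 in floral buds of unstated sex. In vegetative buds of age 6 it read 8.10 and 7.57 in male trees, and 8.61 and 8.58 in trees of unstated sex. The 4 floral isolations lay close together and every one exceeded every vegetative isolation. Between 89.4% and 93.5% of the oligos on the same floral well were dimmer than PTAP1-1B, so this oligo was not at the ceiling.

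**Figure D1:**
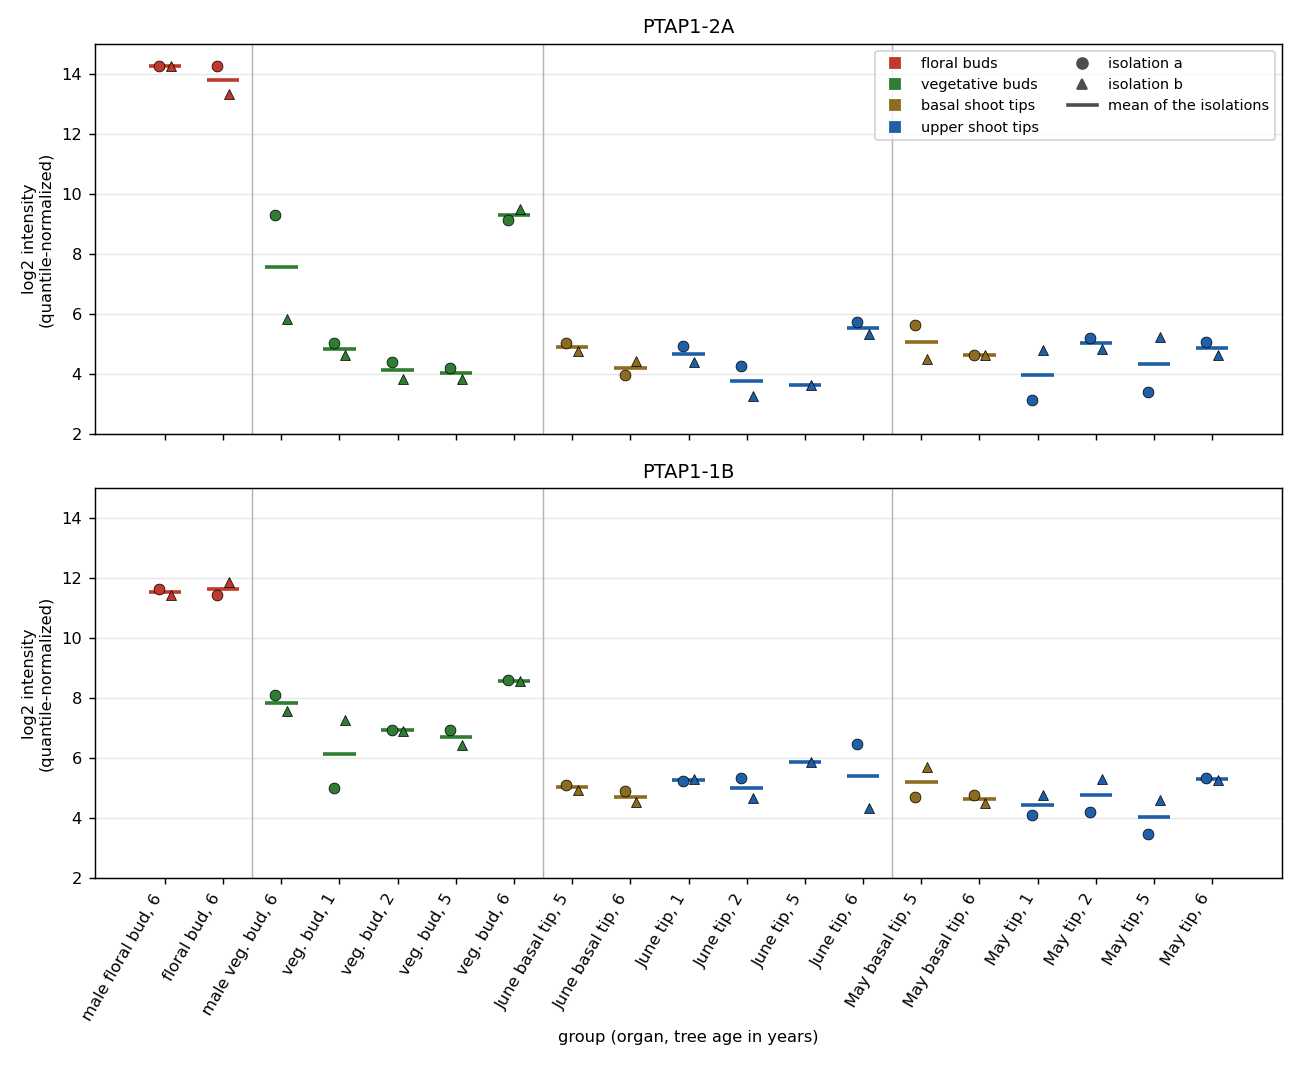
Quantile-normalized log2 intensity of PTAP1-2A (upper panel) and PTAP1-1B (lower panel) in the 19 groups, with organ and tree age in years on the x axis. Circles are isolation a, triangles isolation b, and bars the mean of the isolations. Floral buds stand highest in both panels, vegetative buds of age 6 come next, and PTAP1-2A in younger vegetative buds lies among the shoot tips.

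Which flowering genes distinguish floral from vegetative buds of the same age was the first comparison. Both homologs were higher in floral buds, 2 of 2, in an array on which 29.5% of the oligos passed the test in either direction (64 of 217, with 21 higher and 43 lower). Floral isolations of PTAP1-2A had a mean of 14.02 and vegetative ones of 8.43 (n = 4 each), a difference of 5.59 ± 0.52 with a 95% interval of 4.51 to 6.67 and a limma adjusted p of 7.42e-09. This corresponds to 48.2-fold on the normalized scale and was the first of the 217 differences by size. Floral isolations of PTAP1-1B had a mean of 11.60 and vegetative ones of 8.21, a difference of 3.39 ± 0.42 (95% interval 2.51 to 4.27, limma adjusted p = 9.58e-07), or 10.5-fold. The median difference over all oligos was -0.07. In whole buds, more cells that express a gene and more RNA per cell cannot be told apart.

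Without the quantile normalization, on the values as deposited, the differences were 5.20 ± 0.60 for PTAP1-2A and 3.10 ± 0.44 for PTAP1-1B. With arrays centred on their medians they were 4.98 ± 0.62 and 2.88 ± 0.42, in the same order. Leaving out male vegetative isolation b, whose low value was noticed after the values were seen, gave 4.73 for PTAP1-2A (limma adjusted p = 8.19e-09) and 3.26 for PTAP1-1B (limma adjusted p = 1.6e-05). Both calls therefore stood without that isolation.

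The size of the separation differed between the homologs in this comparison. Within an isolation, PTAP1-2A minus PTAP1-1B had a mean of 2.42 ± 0.65 for floral and 0.22 ± 1.33 for vegetative isolations of age 6 (SD, n = 4 each), so that the difference between organs was 2.20 units larger for PTAP1-2A. An exact two-sided permutation test over the 8 isolations gave p = 0.0286, the smallest p its 70 arrangements allow. The exact permutation p was 0.0571 in 4 of the 8 settings that left out 1 isolation, among them the one without male vegetative isolation b, where the difference was 1.55. On the deposited scale, which has no such ceiling, the difference was 2.09 with the same exact permutation p.

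**Figure D2:**
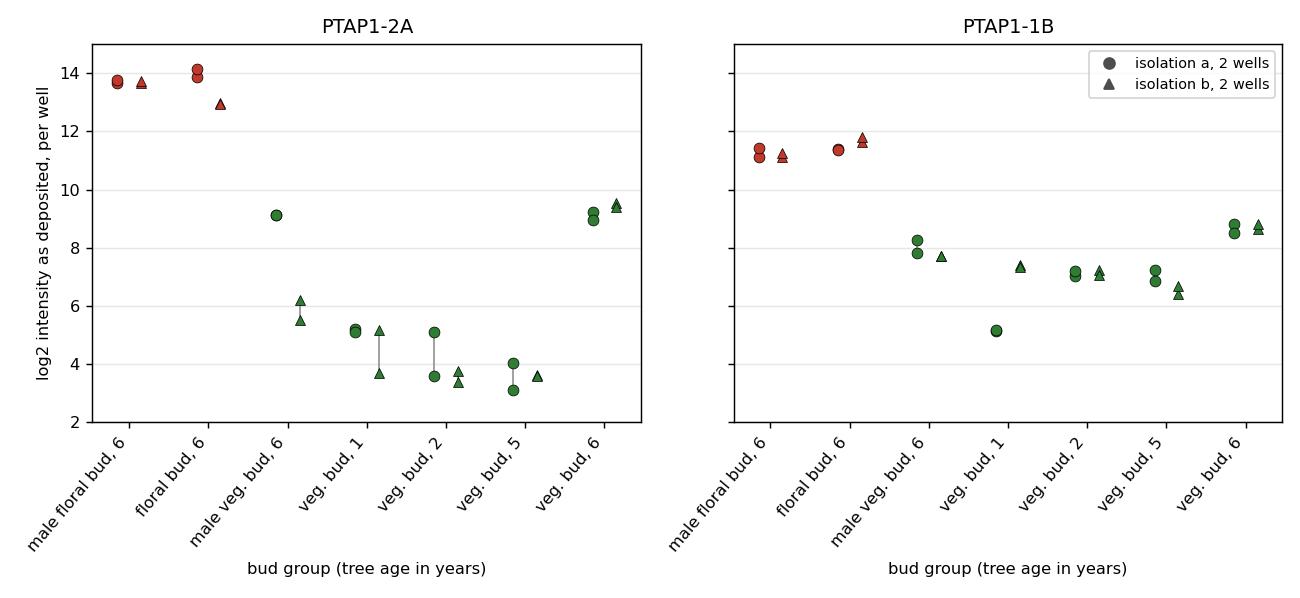
Deposited log2 intensity of each well in the 7 bud groups for PTAP1-2A (left) and PTAP1-1B (right), with tree age in years in the group names; red is floral and green vegetative, circles are isolation a and triangles isolation b, and grey lines join the 2 wells of an isolation. Floral wells of both oligos lie above all vegetative wells before the quantile normalization. The wells of an isolation agree more closely at high than at low intensity for PTAP1-2A.

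The floral difference was found in trees of either label. In male trees, where 19.8% of the oligos passed, PTAP1-2A was higher in floral buds by 6.70 ± 0.73 (limma adjusted p = 2.09e-07) and PTAP1-1B by 3.72 ± 0.60 (limma adjusted p = 4.46e-05). The male value of PTAP1-2A was 4.97 without vegetative isolation b and 8.42 without vegetative isolation a, past the threshold both times. In trees of unstated sex, where 15.7% passed, PTAP1-2A was higher by 4.48 ± 0.73 (limma adjusted p = 7.1e-05) and PTAP1-1B by 3.06 ± 0.60 (limma adjusted p = 4.89e-04). For PTAP1-2A in trees of unstated sex, the difference within the single set of arrays that held all floral buds (sets were found from the data) was 4.29 ± 1.28 and no longer passed (limma adjusted p = 0.101), with 1 vegetative isolation left on one side.

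A test of whether the floral difference depended on the sex label called neither homolog. The male minus unstated difference of differences was 2.21 ± 1.04 for PTAP1-2A (limma adjusted p = 0.549) and 0.66 ± 0.85 for PTAP1-1B (limma adjusted p = 0.942). No oligo of the array passed in limma (0% called), and 19 had an unadjusted p under 0.05. For PTAP1-2A the value rests on the male vegetative isolations, which disagreed. Without isolation b it was 0.49 (limma adjusted p = 0.986), and without isolation a it was 3.94 and passed (limma adjusted p = 0.0246).

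Male floral buds and floral buds of unstated sex were also set side by side. PTAP1-2A differed by 0.46 ± 0.73 (95% interval -1.06 to 1.99) and PTAP1-1B by -0.10 ± 0.60 (95% interval -1.35 to 1.15). Again 0% of the oligos passed in limma, with 25 at an unadjusted p under 0.05. In vegetative buds of age 6, where 2.3% passed, the male minus unstated difference was -1.75 ± 0.73 for PTAP1-2A (95% interval -3.27 to -0.23, limma adjusted p = 0.145) and -0.76 ± 0.60 for PTAP1-1B (limma adjusted p = 0.514). Neither homolog passed, and the intervals leave room for sizeable differences between the trees.

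The male vegetative difference of PTAP1-2A came from 1 isolation. On the deposited scale, isolation a read 9.14 in both wells, and isolation b read 5.53 and 6.22. Without isolation b the difference from buds of unstated sex was -0.02 (limma adjusted p = 0.992), and without isolation a it was -3.48 (limma adjusted p = 0.00525). Over all oligos the 2 male vegetative isolations correlated at 0.976, close to the median of 0.973 for isolations of one group. Isolation b was also the lower of the pair for all 4 floral markers, with PTLF at 9.54 in isolation a and 9.16 in isolation b, PTAG1 at 5.09 and 4.49, PTAG2 at 6.21 and 5.44, and PTD at 5.98 and 5.85. Single wells of the 2 isolations overlapped for PTAG1, PTAG2 and PTD. PTD read 5.54 and 6.41 on the wells of isolation a and 6.95 and 4.75 on those of b. The part of the floral markers in the gap was not tested.

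The 4 floral markers moved with the homologs between floral and vegetative buds of age 6. All 4 were called higher in floral buds, where 21 of all 217 oligos were. PTAG1 was higher by 5.31 ± 0.41, PTAG2 by 4.61 ± 0.31, PTD by 2.50 ± 0.30 and PTLF by 1.26 ± 0.16. The 2 wells of every floral isolation disagreed for PTD, with 6.61 to 7.76 in well 1 and 8.40 to 10.36 in well 2, against 4.75 to 6.95 over the 8 wells of vegetative buds of age 6. Single wells of PTD therefore overlapped between the organs, and the size of its difference depends on the well. The mean level of the 4 markers lay between 9.25 and 10.49 in floral isolations and between 6.24 and 7.07 in vegetative isolations of age 6. The floral isolation with the lowest marker mean, b of the unstated trees, was also the floral isolation with the lowest PTAP1-2A, but it had the highest PTAP1-1B. PTAG1, PTAG2 and PTD read 9.46, 9.31 and 7.50 in that isolation and 11.03, 10.94 and 9.05 in isolation a of the same group.

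Of 5 further oligos with names from flowering pathways, 1 was called higher in floral buds and 2 lower. Over all 217 oligos, 21 were called higher and 43 lower, 29.5% together. PTCO11 was higher by 0.52 ± 0.15 (limma adjusted p = 0.0127), R-AP2 was lower with a difference of -0.70 ± 0.14 (limma adjusted p = 4.01e-04), and PCEN-L, a relative of the shoot meristem gene CENTRORADIALIS of snapdragon, was lower with a difference of -0.56 ± 0.20 (limma adjusted p = 0.0363). PTCO12 (0.28 ± 0.17) and PMFT, named after MOTHER OF FT AND TFL1 of Arabidopsis (0.08 ± 0.14), did not pass. By label, R-AP2 differed by -1.11 ± 0.20 in male trees (limma adjusted p = 1.52e-04) and by -0.29 ± 0.20 in trees of unstated sex (limma adjusted p = 0.372).

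**Figure D3:**
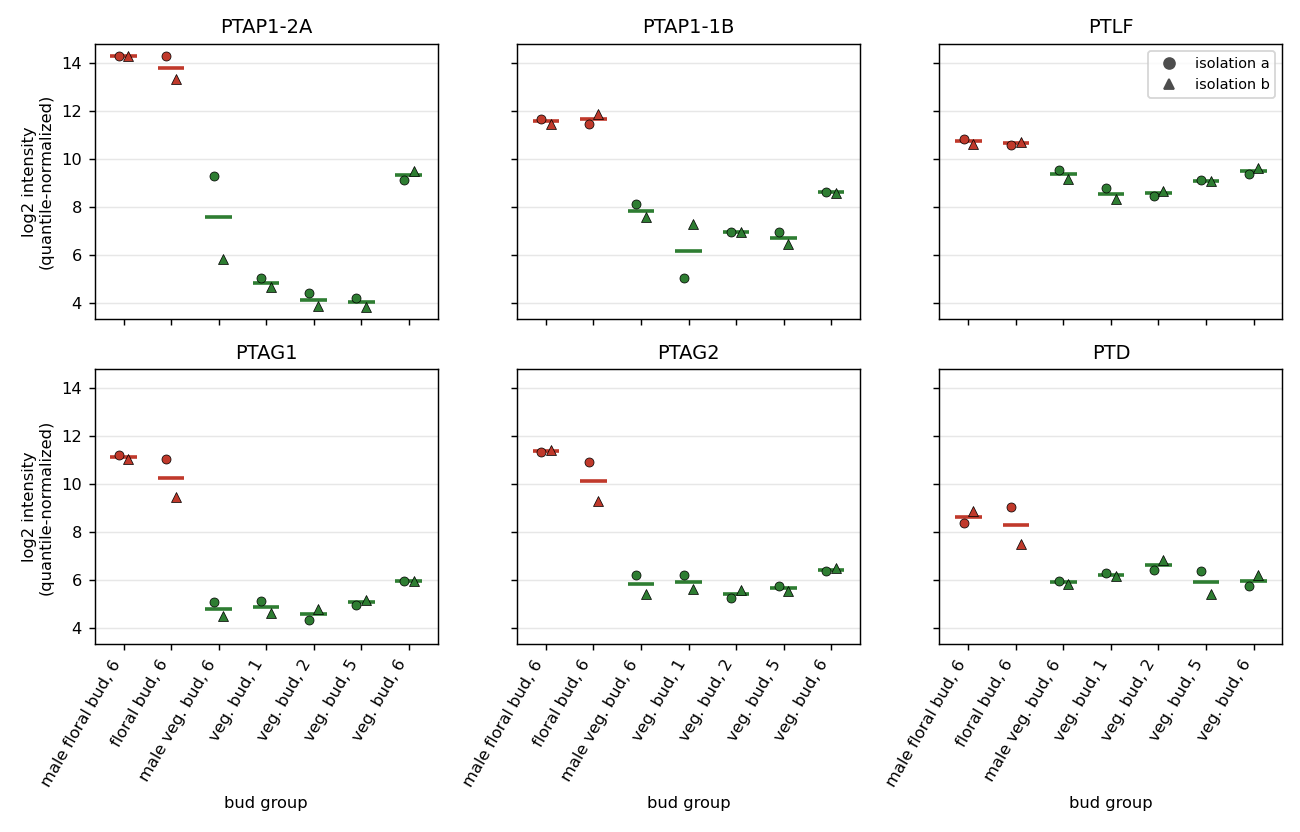
Quantile-normalized log2 intensity of both APETALA1 homologs and the 4 floral markers in the 7 bud groups, with tree age in years in the group names; red is floral, green vegetative, and bars are means of the 2 isolations. All 6 oligos are highest in floral buds, and PTAP1-2A shows the widest gap between vegetative buds of age 6 and younger ones.

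Vegetative buds of unstated sex came from trees of 1, 2, 5 and 6 years, which allows a comparison with tree age in a single organ. PTAP1-2A read 5.02 and 4.65 at age 1, 4.41 and 3.85 at age 2, 4.21 and 3.84 at age 5, and 9.12 and 9.50 at age 6. The isolations of ages 1 to 5 lay close together and both isolations of age 6 stood over 4 units above them. At ages 1, 2 and 5 at most 7.37% of the oligos on the same well were dimmer than PTAP1-2A, against 62.8% to 71.9% on the wells of age 6.

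PTAP1-1B was already above the bottom of the arrays in young vegetative buds. It read 5.01 and 7.27 at age 1, 6.96 and 6.93 at age 2, 6.96 and 6.45 at age 5, and 8.61 and 8.58 at age 6. Both isolations of age 6 exceeded all 6 younger ones, and isolation a of age 1 lay apart below the other 5. Its wells agreed, with deposited values of 5.13 and 5.16, against 7.41 and 7.33 in isolation b. The 2 isolations of age 1 correlated at 0.941 over all oligos, below the median of 0.973 for isolations of one group.

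Both homologs were higher at age 6 than at ages 1, 2 and 5 together, 2 of 2 where 5.99% of the oligos passed (13 of 217). For PTAP1-2A the level was 9.31 ± 0.27 at age 6 (SD, n = 2) and 4.33 ± 0.46 at the younger ages (SD, n = 6), a difference of 4.98 ± 0.60 (95% interval 3.74 to 6.22, limma adjusted p = 5.14e-06). For PTAP1-1B it was 8.59 ± 0.02 at age 6 and 6.60 ± 0.82 at the younger ages, a difference of 2.00 ± 0.49 (95% interval 0.98 to 3.02, limma adjusted p = 0.0159). PTAP1-2A had rank 1 and PTAP1-1B rank 3 by this difference among all oligos, whose median was -0.06. Because the young buds are near the lower end of the scale, the fold behind the PTAP1-2A difference has an unknown floor.

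The PTAP1-1B call did not hold under every setting. Its difference stayed at 2.00 but the limma adjusted p was 0.0666 when only the 4 bud groups were fitted. With the array set as a term the difference was 2.01 and the limma adjusted p was 0.146, and within a single set it was 0.207. Without isolation a of age 1 the difference was 1.62 (limma adjusted p = 0.0297), and with a single isolation of age 6 left (b alone or a alone) it was 1.98 or 2.01 and did not pass (limma adjusted p = 0.099 and 0.156). For PTAP1-2A the difference was 4.79 within a single set (limma adjusted p = 5.49e-05) and between 4.79 and 5.17 under the other settings, all past the threshold.

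Floral markers were examined in the same buds. PTLF was higher at age 6 by 0.76 ± 0.19 (limma adjusted p = 0.017), 1 of the 4 called. PTAG1 differed by 1.13 ± 0.47 (limma adjusted p = 0.147), PTAG2 by 0.78 ± 0.35 (limma adjusted p = 0.19) and PTD by -0.27 ± 0.35 (limma adjusted p = 0.727). The mean of the 4 markers was 6.87 and 7.07 at age 6 and lay between 6.12 and 6.60 at ages 1, 2 and 5. In male vegetative buds of age 6 it was 6.71 and 6.24, the latter within the range of the younger buds. The part of the markers in the age difference of the homologs was not tested. None of the 5 further flowering oligos was called in this comparison.

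Among the younger ages neither homolog passed the test. Age 5 minus ages 1 and 2 was -0.46 ± 0.63 for PTAP1-2A (95% interval -1.78 to 0.86) and 0.17 ± 0.52 for PTAP1-1B (95% interval -0.91 to 1.25). In this comparison 0 of the 2 homologs passed against 30.4% of all oligos. Among the other flowering genes, PTLF was called higher at age 5 by 0.54 ± 0.20 (limma adjusted p = 0.0469) and R-AP2 by 0.62 ± 0.17 (limma adjusted p = 0.00809). PTCO11 fell by 1.59 and PTCO12 by 2.21 on the log2 scale at age 5. Without isolation a of age 1 the PTAP1-1B value was -0.40, still short of the threshold.

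Shoot tips gave low values throughout. Over the 23 tip isolations PTAP1-2A ran from 3.15 to 5.73 with a median of 4.65, and PTAP1-1B ran from 3.47 to 6.48 with a median of 4.90. At most 15.9% of the oligos on the same well were dimmer than PTAP1-2A, and at most 26.5% were dimmer than PTAP1-1B. The lowest value of the whole deposited table, 1.10, was a PTAP1-2A reading in May upper tips of age 1. Each homolog lacked a value in 1 tip well, and the remaining well then stood for that isolation.

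Neither homolog was called for ages 5 and 6 against ages 1 and 2 in upper tips. In May, ages 5 and 6 minus ages 1 and 2 gave 0.09 ± 0.52 for PTAP1-2A and 0.08 ± 0.42 for PTAP1-1B, where 6.45% of the oligos passed. In June the same difference was 0.37 ± 0.58 for PTAP1-2A and 0.49 ± 0.47 for PTAP1-1B, where 7.83% passed. The June means of PTAP1-2A were 4.67, 3.77 and 3.64 at ages 1, 2 and 5, and 5.54 at age 6. Those of PTAP1-1B were 5.27, 5.02 and 5.87, and 5.41 at age 6. The June mean of age 5 is 1 isolation, and age 6 alone against the younger ages was not tested in June. June tips of age 6 held the highest tip isolation of either oligo, 5.73 for PTAP1-2A and 6.48 for PTAP1-1B, both in isolation a. Isolation b of that group read 5.35 for PTAP1-2A and 4.34 for PTAP1-1B, so PTAP1-1B spanned most of its tip range within that group.

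The difference of age 6 from younger ages was larger in vegetative buds than in May upper tips for PTAP1-2A. Age 6 minus ages 1, 2 and 5 in buds exceeded the same difference in May tips by 4.57 ± 0.85 for PTAP1-2A (limma adjusted p = 0.00229), in a test that 10.1% of the oligos passed. For PTAP1-1B the excess was 1.10 ± 0.69 (95% interval -0.34 to 2.53, limma adjusted p = 0.373), which did not pass. May upper tips of age 6 read 5.08 and 4.63 for PTAP1-2A, against 3.15 to 5.24 at the younger ages, and for PTAP1-1B they read 5.36 and 5.29, against 3.47 to 5.33. Buds and tips carry different sex labels, so the organ and the tree cannot be told apart in this test.

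Neither homolog was called for position on the shoot or for month. Basal minus upper tips of ages 5 and 6 was 0.11 ± 0.39 for PTAP1-2A and -0.25 ± 0.32 for PTAP1-1B, 0 of 2 called where 46.1% of all oligos passed. In that comparison 3 of the 4 floral markers were called, PTLF higher by 0.45 ± 0.12, PTAG2 higher by 0.70 ± 0.23 and PTD lower with a difference of -1.08 ± 0.23. June minus May upper tips was -0.14 ± 0.39 for PTAP1-2A and 0.75 ± 0.32 for PTAP1-1B (95% interval 0.08 to 1.41, limma adjusted p = 0.0747), again 0 of 2 called where 35.9% passed. PTAP1-1B lay at 4.34 to 6.48 in the 7 June isolations and at 3.47 to 5.36 in the 8 May isolations, so the months overlapped. It passed at 0.73 when wells entered as separate arrays (limma adjusted p = 0.0227) and in 3 leave-outs, at up to 1.01 without isolation b of June age 6 (limma adjusted p = 0.00951). May and June upper tips lay in different sets of arrays, so month and array set cannot be told apart for them. June minus May basal tips was -0.30 ± 0.52 for PTAP1-2A and -0.04 ± 0.42 for PTAP1-1B, where 27.6% of the oligos passed.

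Buds were then compared with upper tips. At age 6, floral buds exceeded upper tips by 8.83 ± 0.52 for PTAP1-2A (limma adjusted p = 1.68e-12) and by 6.24 ± 0.42 for PTAP1-1B (limma adjusted p = 2.17e-11), in a comparison in which 66.4% of all oligos passed. Vegetative buds exceeded upper tips over ages 1, 2, 5 and 6 by 1.10 ± 0.32 for PTAP1-2A (limma adjusted p = 0.00474) and by 2.07 ± 0.27 for PTAP1-1B (limma adjusted p = 4.07e-07), also with 66.4% passing.

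With age 6 left out, a comparison added after the values were seen, the homologs parted. Vegetative buds of ages 1, 2 and 5 differed from upper tips of those ages by 0.10 ± 0.38 for PTAP1-2A (95% interval -0.68 to 0.88, limma adjusted p = 0.838) and by 1.69 ± 0.31 for PTAP1-1B (limma adjusted p = 6.26e-05), where 63.6% of the oligos passed. PTAP1-1B lay at 6.45 to 7.27 in 5 of the 6 young bud isolations, above every upper tip isolation of those ages, whose highest was 5.87. Isolation a of age 1, at 5.01, fell inside the tip range, and without it the PTAP1-1B difference was 2.07 (limma adjusted p = 1.8e-06). PTAP1-2A lay at 3.84 to 5.02 in the young buds and at 3.15 to 5.24 in the tips, so the organs overlapped. Whether the buds-against-tips difference itself differs between the homologs was not tested. Most oligos of the array were called between these organs, and the buds of ages 1, 2 and 5 and the upper tips lay in different sets of arrays, so organ and array set cannot be told apart.

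**Figure D4:**
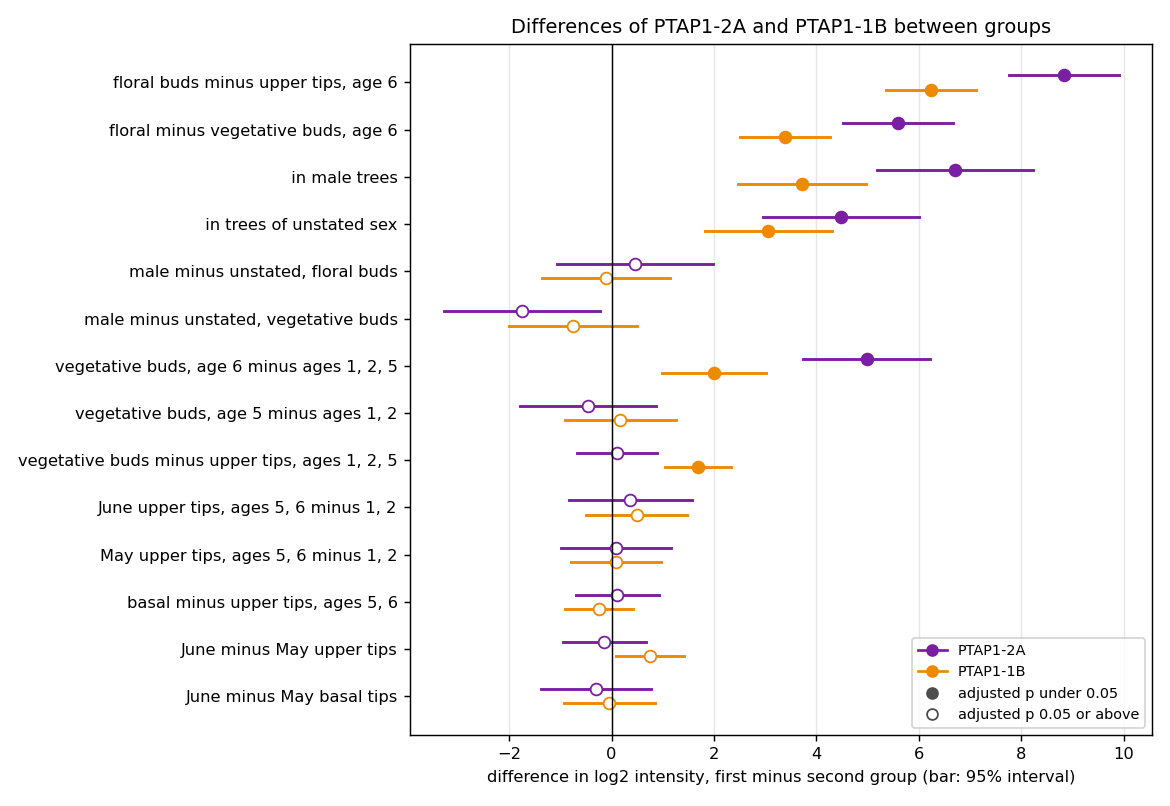
Differences in log2 intensity between groups for PTAP1-2A (purple) and PTAP1-1B (orange), the group named first minus the one named after it, with 95% intervals; filled points have a limma adjusted p under 0.05. Floral minus vegetative buds, and age-6 minus younger vegetative buds of unstated sex, lie to the right for both oligos. Of the comparisons within shoot tips none has a filled point, though the interval of June minus May upper tips for PTAP1-1B (0.08 to 1.41) does not reach 0.

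Ordered by level, the 19 groups fell into a few steps for PTAP1-2A. Male floral buds (14.26) and floral buds of unstated sex (13.79) led and did not differ beyond 2 SE. Vegetative buds of age 6 of unstated sex (9.31) followed with a gap of 4.48 ± 0.73, then male vegetative buds (7.56), then June upper tips of age 6 (5.54), each over 2 SE below its neighbour. From there down to June upper tips of age 5 (3.64), no 2 neighbours among the remaining groups differed beyond 2 SE. The order by level is a description of these means, and the 2 SE rule is not adjusted. The step from 9.31 to 7.56 is the male minus unstated difference in vegetative buds, which did not pass (limma adjusted p = 0.145). The steps above and below male vegetative buds rest on the mean of 2 isolations that disagreed, 9.29 in a and 5.83 in b.

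For PTAP1-1B the same ordering had 1 gap beyond 2 SE between neighbours. Floral buds of unstated sex (11.66) and male floral buds (11.55) stood 2.96 ± 0.60 above vegetative buds of age 6 of unstated sex (8.59). Below that came male vegetative buds (7.84) and vegetative buds of age 2 (6.94), age 5 (6.71) and age 1 (6.14). The tip groups followed, down to May upper tips of age 5 (4.05), and no neighbours differed beyond 2 SE. Groups further apart in this order can still differ. Limma called vegetative buds of age 6 minus ages 1, 2 and 5 (2.00 ± 0.49) and vegetative buds of ages 1, 2 and 5 minus upper tips (1.69 ± 0.31). All 7 bud groups came before all 12 tip groups in this order, whereas for PTAP1-2A young vegetative buds were mixed among the tips. The border is narrow for PTAP1-1B. Its last bud group, age 1, averages isolations of 5.01 and 7.27. June upper tips of age 5 (5.87), which are 1 isolation, follow with a gap of 0.27 ± 0.74.

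**Figure D5:**
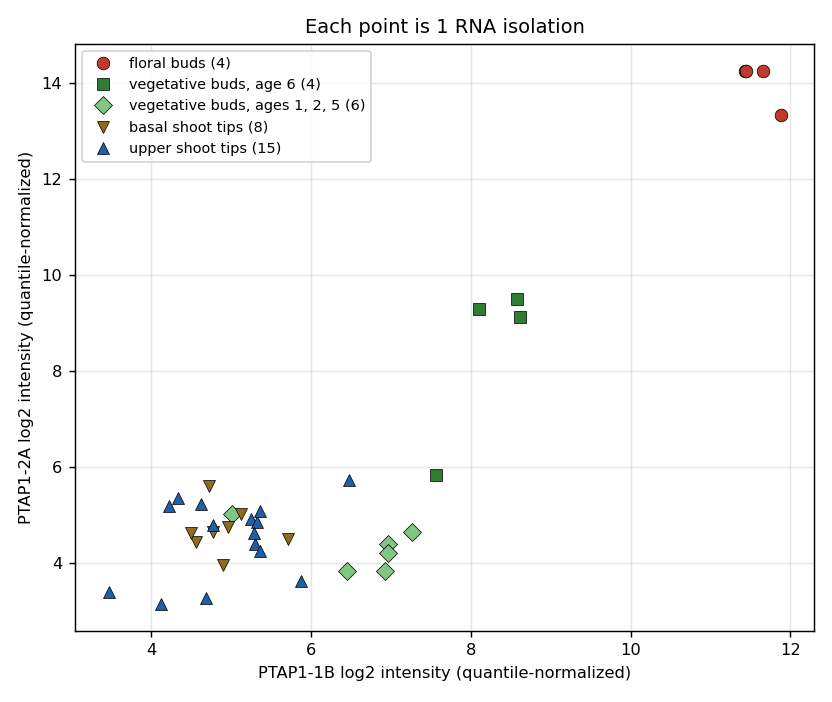
Quantile-normalized log2 intensity of PTAP1-1B (x axis) against PTAP1-2A (y axis), with 1 point for each of the 37 isolations, coloured by organ and age class. Floral isolations sit at the upper right, 3 of the 4 vegetative isolations of age 6 lie between them and the rest, and young vegetative buds lie to the right of most tips at a similar height.

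The oligos whose 19 group means ran most like PTAP1-2A were M129E09 (Pearson r = 0.97, Spearman rho = 0.73), PTAP1-1B (0.93 and 0.51), V016F11 (0.92 and 0.35), PTAG1 (0.91 and 0.41) and PTAG2 (0.88 and 0.27). Over the 17 groups that are not floral buds, r with PTAP1-2A was 0.85 for M129E09, 0.70 for PTAP1-1B, 0.46 for V016F11, 0.36 for PTAG1 and 0.14 for PTAG2. Each of these r values was lower than the one over all 19 groups. The groups share sets of arrays and a scaling, and these coefficients are descriptions.

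M129E09, an oligo known here only by its clone name, was chosen for its likeness to PTAP1-2A. It read 12.05 ± 0.07 in male floral buds and 12.07 ± 0.60 in floral buds of unstated sex, 6.69 ± 1.03 in male vegetative buds and 8.21 ± 0.18 in vegetative buds of age 6 of unstated sex (SD, n = 2 each). At ages 1, 2 and 5 its vegetative means were 5.92, 5.79 and 5.99. The highest tip groups came close to its mean in male vegetative buds. May upper tips of age 2 read 6.61 ± 0.37 and June basal tips of age 6 read 6.46 ± 0.12. For PTAP1-2A the mean of male vegetative buds stood above all tip groups. Its isolation b there (5.83) was nevertheless near the highest tip isolation (5.73). The male vegetative isolations of M129E09 read 7.42 in a and 5.96 in b, in the same order as those of PTAP1-2A. The oligo running most against PTAP1-2A was A069P31U (r = -0.89, rho = -0.48, and -0.47 without the floral groups).

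For PTAP1-1B the nearest oligos were PTAP1-2A (r = 0.93), M129E09 (0.92), F066P33Y (0.88), V016F11 (0.86) and UM89TG10 (0.85). UM89TG10 kept its likeness without the floral groups (r = 0.90) and had the highest Spearman rho of the 5, at 0.87. It read 10.37 in male floral buds and 11.05 in floral buds of unstated sex, 9.59 to 10.57 in the 5 vegetative bud groups, and 5.28 to 7.26 in the 12 tip groups, so that it split buds from tips. V008A10 ran most against PTAP1-1B (r = -0.92, rho = -0.85). Over the 12 tip groups alone the 2 homologs correlated at 0.11.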

How the data were processed

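The table as deposited by the authors holds log2 intensities, with 1 value per oligo and array, made before deposit by steps (scanning, background correction, normalization, merging of duplicate spots) that the labels do not give. The log base is not stated either, and base 2 was inferred from values of 1.10 to 16.25. Of all values, 216 (1.35%) were missing and stayed missing. After quantile normalization the wells of an isolation were averaged, and limma 3.58.1 (R 4.3.3) fitted 1 mean per group to 37 isolations, leaving 18 residual degrees of freedom. Comparisons are two-sided contrasts weighing groups equally, with Benjamini-Hochberg adjustment over 217 oligos. The procedure was tested on simulated data.

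The 5 array sets were found from correlated differences between well 1 and well 2, not from a label. Set 1 held all floral buds, the male vegetative buds and isolation b of the age-6 vegetative buds of unstated sex. The other vegetative buds shared set 2 with June basal tips, except isolation a of June basal tips of age 5, which lay in set 3. Upper tips lay in sets 3 to 5, and May basal tips in sets 3 and 5. Deviations of isolations with the same letter correlated at -0.27 to 0.30 over 153 pairs of groups (median -0.01), so letters were not treated as pairs.

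The genes and lists were chosen with earlier results of these data known. Other oligos named are the floral markers, 5 further flowering names, and for each homolog the 5 with the highest and the 1 with the lowest Pearson correlation of group means. Alternatives were other scalings, wells as separate arrays, only the groups compared, the array set as a term or a single set, the isolation letter, a filter on dim oligos, and each isolation left out.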

Additional observations from a re-analysis of the deposited data

Results flagged for a closer look

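In vegetative buds of age 1, well 1 of isolation b gave PTAP1-2A a deposited value of 3.70, apart from the other 3 wells of the group at 5.11 to 5.21. Of 34 sets of 4 wells checked for the homologs, 1 held a well that stood apart this far, and chance alone gives about 1 in 20. Leaving out an isolation of that group changed no call for PTAP1-2A. The difference of age 6 from younger ages was larger for PTAP1-2A in vegetative buds than in May upper tips by 4.57 (limma adjusted p = 0.00229), a tested difference between organs whose trees also carry different sex labels.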

How the results depend on the processing

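Of 551 alternative values for 35 results, 505 kept direction and side of the threshold, 10 lost a call, 6 gained one and 30 changed sign, each of the last from a difference that had not passed. Under the values as deposited, the May tip age difference of PTAP1-1B was -0.02 and the June one of PTAP1-2A -0.09; with centred arrays these were -0.06 and -0.11, and the young bud-tip difference of PTAP1-2A was -0.05. With the array set as a term, June minus May basal tips gave 0.18 for PTAP1-2A, and the age-6 difference of PTAP1-1B was 2.01 and not called, as within a single set (2.01) and with only the bud groups (2.00). The floral difference of PTAP1-2A in trees of unstated sex was 4.29 and not called within 1 set. PTAP1-1B was called for June against May upper tips, at 0.73, with wells as separate arrays. The cause of these shifts was not tested.

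Leaving out 1 isolation at a time gave, for PTAP1-2A, 0.49 to 3.94 for the sex difference of the floral difference, -3.48 to -0.02 for male minus unstated vegetative buds, -0.37 to 0.55 for age in May tips, -0.27 to 0.34 for basal against upper tips, -0.37 to 0.09 for June against May upper tips and -0.06 to 0.25 for young buds against tips. For PTAP1-1B it gave -0.32 to 0.12 for male minus unstated floral buds, 1.62 to 2.37 for the age-6 difference, -0.40 to 0.73 for age 5 against ages 1 and 2, -0.21 to 0.37 for age in May tips, -0.04 to 1.03 for age in June tips, -0.52 to 0.01 for basal against upper tips, 0.39 to 1.01 for June against May upper tips and -0.29 to 0.20 for June against May basal tips. The difference between the homologs ran from 1.55 to 2.52.

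With the isolation letter as a replicate block, the floral difference of PTAP1-2A was 5.59 (limma adjusted p = 1.02e-08) and no call on either homolog changed. The filter on dim oligos kept 158 oligos and neither homolog, so it gave no value, and the array set could not be fitted as a term for June tip age, June against May upper tips or vegetative buds against tips. Low intensities cannot be told from background, and 1 or 2 isolations a group limit the precision.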
